A study of Homo sapiens with 10 samples.

Results

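The WM278 melanoma cell line was compared in its BRAFi/MEKi-sensitive state and its BRAFi/MEKi-resistant state, the latter called WM278 E+BRes. These are 2 of the 10 RNA-seq libraries of the series, chosen by their line, and the other 8 are the same pair of states in WM983A, WM983B, WM1617 and WM902B. WM278 was derived from a primary tumour, all 5 lines carry the BRAF V600E mutation, and the study lists WM278 and WM1617 as lines from the primary tumour and the metastasis of one patient. The sensitive state was the original line without drug. For the resistant state the line had been passaged with encorafenib, a BRAF inhibitor, combined with binimetinib, a MEK inhibitor. The concentration began at 1 nM and was raised to 200 nM, which took 3 to 5 months, and the cells were kept at the latter. Sensitive cells had no drug in their medium, so acquired resistance and the presence of both inhibitors cannot be told apart. Both states grew in the same serum-containing medium. Each state had 1 library and no replicate, so the values below are sizes of differences between these libraries and no test could be made.

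BRAF with this mutation signals continuously through MEK to the kinase ERK, which switches on growth genes and, as a brake, its own feedback inhibitors such as the Sprouty proteins and the dual-specificity phosphatases. Melanoma cells can escape blockade of this cascade by restoring ERK activity, through other receptor kinases, or by moving between a pigmented state driven by the transcription factor MITF and dedifferentiated states with low MITF. Interferon signalling, in which type I interferon activates a complex holding STAT2 and IRF9, and NF-kB signalling both set how visible such cells are to the immune system.

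The sensitive library held 16966008 reads assigned to genes and the resistant library 15709373, within the range of the 10 libraries from 13693922 to 18033247. A gene with 3 reads, taken as the floor of detection, corresponded to 0.177 counts per 1000000 (CPM) in the sensitive library and 0.191 CPM in the resistant one. The label as a melanoma line was checked against melanocyte genes. SOX10, the master regulator of the lineage, was at 299 CPM in the sensitive and 273 CPM in the resistant library, while MITF was at 10.1 and 14.4 CPM, against 272 to 629 CPM in the sensitive libraries of the other 4 lines. The pigment genes PMEL (4.15 and 4.28 CPM), MLANA (0.710 and 0.395 CPM) and TYR (0.530 and 0.590 CPM) were low in both states. WM278 was therefore a SOX10-expressing line with little MITF and pigment gene expression, with drug or without. Of markers of other cells, none of 10 for T and NK cells had 20 reads in either library, 1 of 10 for macrophages had them and 4 of 10 for endothelium, and the leukocyte gene PTPRC and the endothelial gene CDH5 had no reads.

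Of the 57955 genes in the tables, 16700 had at least 20 reads in either WM278 library and were compared. The log2 ratio of resistant to sensitive, computed on CPM with 1 added, had a median of 0.08 and quartiles of -0.28 and 0.50, and folds of 2 and 8 are counted on that scale throughout. In the resistant library 1732 genes (10.4%) were at least 2-fold higher and 900 (5.39%) at least 2-fold lower, and 14068 (84.2%) lay within 2-fold. The counts given below for gene lists are to be read beside these shares. At least 8-fold, 101 genes (0.605%) were higher and 67 (0.401%) lower. The excess of higher over lower genes shrank when the libraries were scaled by edgeR's TMM factors, which moved the median ratio to -0.03 and gave 1486 higher and 1075 lower genes. Among 12833 protein-coding genes 1342 were at least 2-fold higher and 758 lower, and among 1879 lncRNA genes 278 were higher and 87 lower.

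**Figure D1:**
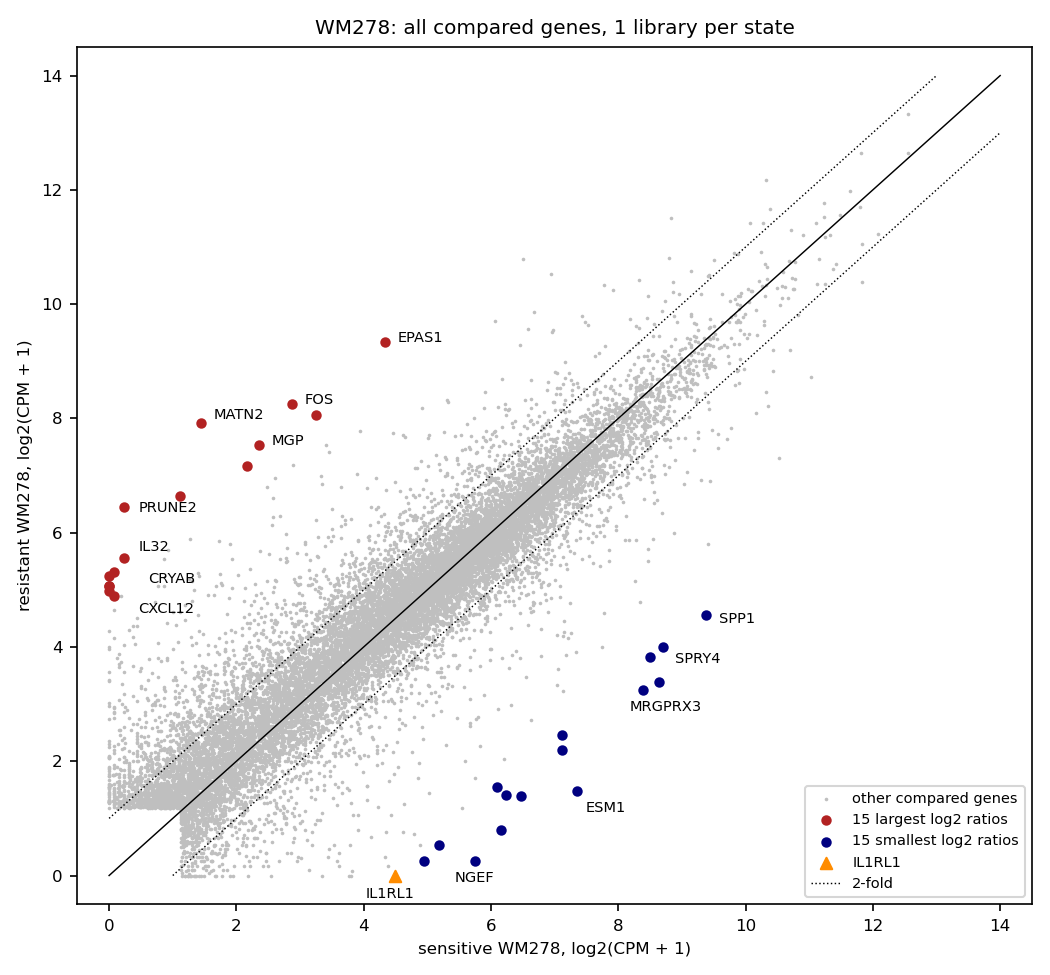
Levels of the 16700 compared genes in sensitive (x axis) and resistant (y axis) WM278, as log2 of CPM with 1 added. Each point is a gene, the solid line marks equal levels and the dotted lines mark 2-fold; most genes lie between the dotted lines, while the 15 genes with the largest ratios (red) and the 15 with the smallest (blue) stand far outside, many of them at or near 0 in one state.

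Among 4 genes examined first, CRYAB, CXCL12 and EPAS1 were far higher in WM278 E+BRes and IL1RL1 was lost. CRYAB (ENSG00000109846, GRCh38 chromosome 11 from 111908564 to 111923722, minus strand) encodes alpha-B crystallin, a small heat shock protein that holds unfolding proteins in solution. It had 1 read in the sensitive and 605 reads in the resistant library, 0.0589 against 38.5 CPM, a ratio of 654 with a 95% counting interval of 117 to 25850. That interval, like the others given here, is the exact binomial interval and covers counting error only, not the variation between cultures. CXCL12 (ENSG00000107562, chromosome 10 from 44370165 to 44386493, minus strand), the chemokine that attracts CXCR4-bearing cells, had 0 reads in the sensitive and 511 in the resistant library, at least 184-fold higher when the floor of 3 reads is used for the sensitive library. Its receptor CXCR4 was higher too, with 2 and 214 reads (0.118 and 13.6 CPM). EPAS1 (ENSG00000116016, chromosome 2 from 46293667 to 46386697, plus strand) encodes HIF-2 alpha, an oxygen-regulated transcription factor. It was at 19.2 CPM in the sensitive and 649 CPM in the resistant library, a ratio of 33.8 (95% counting interval 30.2 to 37.8), and was the most abundant of the 15 genes with the largest log2 ratios. IL1RL1 (ENSG00000115602, chromosome 2 from 102311502 to 102352037, plus strand), the receptor for interleukin-33, had 363 reads in the sensitive library (21.4 CPM) and 0 in the resistant library, at least 112-fold lower. Its ligand IL33 was near the floor in both, at 0.736 and 0.318 CPM.

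The 15 largest log2 ratios also included genes of matrix, neuronal and immune function. MATN2, which encodes the matrix protein matrilin-2, had the largest of all, 6.48, with 1.72 CPM in the sensitive and 241 CPM in the resistant library. PRUNE2 followed with 6.21 (0.176 and 85.99 CPM), and ART4, the carrier of the Dombrock blood group, with 5.52 (1.16 and 98.3 CPM). MGP, the matrix Gla protein that inhibits calcification, was at 4.14 and 185 CPM, and its ratio was 44.7 (95% counting interval 35.4 to 57.7). FOS, IL32 and IL34 belong to the same 15 and are described with their families. The remaining members were BEX1 (3.47 and 142 CPM), FDCSP (8.50 and 267 CPM), the synaptic adhesion gene LRRTM4 with 0 and 477 reads, and the lncRNA genes PAPPA-AS1 with 0 and 512 reads and RP11-334J6.7, which had no reads in the sensitive library. For an antisense gene such as PAPPA-AS1 the reads cannot be separated from those of a gene on the opposite strand unless the counting used strand, which was not given in the sources used here.

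At the other end, secreted, membrane and transcription factor genes were far lower. ESM1, encoding the secreted proteoglycan endocan, had the smallest log2 ratio, -5.87, with 162 CPM in the sensitive and 1.78 CPM in the resistant library. NGEF, a guanine exchange factor known from neurons, had 896 reads against 3, a 277-fold difference with a 95% counting interval of 94.3 to 1344. MRGPRX3, an orphan receptor of the MRGPR family, was at 398 and 9.46 CPM, and may share reads with its close relative MRGPRX4. KCNN4, the calcium-activated potassium channel KCa3.1, was at 333 and 8.49 CPM. SPP1, encoding the secreted phosphoprotein osteopontin, was one of the more abundant transcripts of the sensitive library at 666 CPM and stood at 22.7 CPM in the resistant one, 29.3-fold lower (95% counting interval 26.4 to 32.6). The metabolic genes LPL, lipoprotein lipase (359.7 and 13.2 CPM), and GFPT2, an enzyme of hexosamine synthesis (74.5 and 1.66 CPM), belonged to this set. So did SOX8, a SOX10 relative (138 and 3.59 CPM), HHIP, the hedgehog-binding antagonist (137 and 4.52 CPM), ITIH5 (35.3 and 0.447 CPM) and PDZD2 (67.3 and 1.91 CPM). STC1, EGR3, SPRY4 and IL37 complete the 15.

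Transcripts that serve as readouts of ERK output were mostly lower in WM278 E+BRes than in the sensitive cells. Of 30 genes of MAPK feedback and output, all compared, 18 were at least 2-fold lower, 2 were at least 2-fold higher and 10 lay within 2-fold, giving a median log2 ratio of -1.14. Among the feedback inhibitors, SPRY4 was at 414 CPM in the sensitive and 15.03 CPM in the resistant library, 27.5-fold lower (95% counting interval 24.2 to 31.5). SPRED1 (329 and 139.8 CPM) and SPRED2 (189.5 and 77.9 CPM), which hold RAS inactive, were lower by less. The phosphatases differed in degree: DUSP5 was at 53.2 and 5.68 CPM, DUSP4 at 367 and 118 CPM, and DUSP6, the ERK-specific phosphatase of the cytoplasm, at 229.5 and 115 CPM, just short of 2-fold with a log2 ratio of -0.99. The PEA3 transcription factors, direct ERK targets, were lower together, with log2 ratios of -3.44 for ETV4, -2.84 for ETV1 and -1.64 for ETV5. The output was not uniformly low. CCND1, the cyclin of G1, was at 1162 and 699 CPM (log2 ratio -0.73), MYC at 92.8 and 100.3 CPM, and EGR1 and LZTS1 were at least 2-fold higher, at 62.5 and 198 CPM and at 17.7 and 71.9 CPM.

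Immediate early genes, which serum and growth factors switch on within minutes, divided into opposite groups. Of 25 AP-1 and immediate early genes compared, 10 were at least 2-fold higher, 3 at least 2-fold lower and 12 within 2-fold, with a median log2 ratio of 0.48. FOS had 108 reads in the sensitive and 4754 in the resistant library, 6.34 and 303 CPM, a ratio of 47.7 (95% counting interval 39.3 to 58.1). Its relative FOSB was at 13.9 and 129 CPM. The JUN partners were higher by less: JUNB at 50.3 and 207 CPM, JUND at 59.8 and 194 CPM, and JUN within 2-fold at 291 and 458 CPM. DUSP1, a nuclear phosphatase of the stress kinases, was at 5.84 and 62.3 CPM, ATF3, a stress-induced factor, at 6.78 and 33.2 CPM, and ZFP36, which destabilises cytokine mRNA, with a log2 ratio of 1.78. Against these, EGR3 was at 70.6 and 0.734 CPM, the AP-1 subunit FOSL1, stabilised by sustained ERK activity, at 427 and 210.3 CPM, and KLF4 at 39.96 and 19.03 CPM. Within one family, EGR1 and EGR3 thus had opposite signs, with log2 ratios of 1.65 and -5.37, and so did FOS and FOSL1, with 5.37 and -1.02.

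The sequences in front of 2 of the higher genes are shown because they hold classical serum and cAMP elements. They are the 250 bases before the RefSeq start in GRCh38.p14, written 5′ to 3′ on the gene's strand, EGR1 from chr5:138465229-138465478 on the plus strand with its CArG boxes, the serum response factor site, in capitals, and DUSP1 from chr5:172771196-172771445 on the minus strand with the palindromic cAMP-response element TGACGTCA in capitals.
EGR1: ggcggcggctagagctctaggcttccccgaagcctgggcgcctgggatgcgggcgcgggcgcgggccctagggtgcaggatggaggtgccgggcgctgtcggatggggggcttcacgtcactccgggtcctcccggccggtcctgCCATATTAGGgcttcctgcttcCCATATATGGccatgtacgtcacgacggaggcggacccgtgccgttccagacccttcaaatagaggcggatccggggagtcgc
DUSP1: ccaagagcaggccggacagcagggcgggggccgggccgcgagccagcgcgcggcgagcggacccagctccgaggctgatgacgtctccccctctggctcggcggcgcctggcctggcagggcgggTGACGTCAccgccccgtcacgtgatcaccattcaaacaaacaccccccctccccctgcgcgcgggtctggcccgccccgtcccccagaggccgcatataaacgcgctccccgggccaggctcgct
No gene of the immediate early list held more than 1 of the motifs searched here. Elements outside these 250 bases were not searched, so a gene without a match may hold one elsewhere. Searched on both strands, a CArG box was found in 1.14% of 27305 RefSeq promoters of this length and in 1 of 21 matched genes of the AP-1 and immediate early list, and the cAMP-response element in 1.77% of all promoters and in 4 of the 21. The cAMP-response element was found in 2 of 10 genes that were at least 2-fold higher and in 2 of 11 that were not, so the shares were alike in both groups.

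The kinases of the cascade themselves differed little. Of 20 RAS, RAF, MEK and ERK genes compared, 16 lay within 2-fold and the median log2 ratio was -0.01. BRAF was at 43.4 CPM in the sensitive and 42.5 CPM in the resistant library, a ratio of 0.980 (95% counting interval 0.880 to 1.09). NRAS was at 130.1 and 116 CPM, and MAP2K1, which encodes MEK1, at 93.9 and 58.3 CPM. The 3 genes at least 2-fold higher were KSR1, a scaffold that brings RAF and MEK together (4.73 and 48.4 CPM), MAP3K8, the kinase COT that can phosphorylate MEK without RAF (0.766 and 12.5 CPM, a ratio of 16.3 with a 95% counting interval of 9.30 to 31.1), and RRAS (36.4 and 106 CPM). MRAS was the only one at least 2-fold lower, at 56.01 and 26.1 CPM.

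Receptor tyrosine kinases differed in both directions. Of 30 compared, 7 were at least 2-fold higher and 10 at least 2-fold lower. AXL, MET and EGFR, often named as bypass receptors in dedifferentiated melanoma, were all lower, AXL at 689 and 285 CPM, EGFR at 118 and 54.5 CPM, and MET at 55.9 and 24.5 CPM. The VEGF receptor genes KDR and FLT1 were lower, KDR at 50.1 and 5.15 CPM and FLT1 at 118 and 23.4 CPM. Among those higher, NTRK2, the receptor of the neurotrophin BDNF, had the largest log2 ratio, 3.67, with 1.53 and 31.1 CPM. ERBB2 was the most abundant of them at 63.04 and 179.5 CPM, a ratio of 2.85 (95% counting interval 2.65 to 3.06). FGFR3 was at 2.76 and 18.6 CPM and PDGFRB at 1.64 and 10.7 CPM. Their ligands differed as well: PDGFB, a ligand of PDGFRB, was at 31.1 and 202 CPM, whereas PDGFC was at 63.2 and 14.6 CPM and the EGFR ligand AREG at 5.34 and 0.191 CPM.

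Many interferon-stimulated genes were higher in the resistant cells and few were lower. Of 44 type I interferon-stimulated genes, all compared, 24 were at least 2-fold higher and 0 at least 2-fold lower (median log2 ratio of the list 1.08, against 0.08 over all compared genes). With TMM scaling the count was 22. XAF1, a pro-apoptotic interferon target, had the largest log2 ratio, 3.69, with 0.0884 CPM in the sensitive and 13.01 CPM in the resistant library. IFI27 was at 2.40 and 33.7 CPM, a ratio of 14.1 (95% counting interval 10.2 to 19.7), and IFI44L at 1.75 and 10.97 CPM. The 2',5'-oligoadenylate synthetases, sensors of double-stranded RNA, were higher for OAS2 (8.54 and 37.3 CPM) and OAS1 (3.42 and 15.3 CPM). The membrane restriction factors IFITM1 (6.96 and 33.2 CPM), IFITM2 (32.2 and 103 CPM) and IFITM3 (113 and 276 CPM) were higher together, although these near-identical neighbours may share reads. Of the factors that carry the signal, STAT2 was at 49.98 and 175 CPM, and IRF9 at 2.54 and 5.89 CPM, just short of 2-fold on the scale with 1 CPM added. At the lower end of the list CMPK2, ISG20 and HERC5 had log2 ratios of -0.74, -0.65 and -0.23.

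The interferon-stimulated response element is shown for 4 genes with large ratios and for HERC5, which was not higher. Each sequence is the 250 bases before the RefSeq start in GRCh38.p14, 5′ to 3′ on the plus strand: IFI27 from chr14:94110486-94110735, IFI44L from chr1:78620198-78620447, IFITM1 from chr11:313790-314039, IFIT1 from chr10:89392373-89392622 and HERC5 from chr4:88456869-88457118. Capitals mark matches, on either strand, to the core of that element, 2 copies of GAAA separated by any 2 bases. A match on the other strand appears as 2 copies of TTTC, and matches that overlap form one run.
IFI27: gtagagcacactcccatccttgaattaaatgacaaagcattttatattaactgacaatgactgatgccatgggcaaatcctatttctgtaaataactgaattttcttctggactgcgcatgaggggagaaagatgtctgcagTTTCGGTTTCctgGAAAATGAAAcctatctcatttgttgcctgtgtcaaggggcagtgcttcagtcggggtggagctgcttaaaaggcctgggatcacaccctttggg
IFI44L: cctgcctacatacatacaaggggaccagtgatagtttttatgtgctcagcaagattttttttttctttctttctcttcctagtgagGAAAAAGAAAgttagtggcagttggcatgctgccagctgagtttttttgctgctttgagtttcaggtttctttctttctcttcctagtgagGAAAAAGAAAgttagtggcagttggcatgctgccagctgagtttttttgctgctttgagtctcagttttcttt
IFITM1: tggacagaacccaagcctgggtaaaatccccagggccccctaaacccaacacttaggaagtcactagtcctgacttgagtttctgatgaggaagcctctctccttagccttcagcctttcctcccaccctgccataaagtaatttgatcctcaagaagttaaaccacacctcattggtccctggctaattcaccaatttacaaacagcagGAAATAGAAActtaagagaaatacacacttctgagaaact
IFIT1: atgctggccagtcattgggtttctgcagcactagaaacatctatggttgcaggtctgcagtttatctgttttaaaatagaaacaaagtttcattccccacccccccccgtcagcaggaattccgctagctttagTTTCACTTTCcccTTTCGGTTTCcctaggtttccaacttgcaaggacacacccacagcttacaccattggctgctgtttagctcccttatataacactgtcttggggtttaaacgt
HERC5: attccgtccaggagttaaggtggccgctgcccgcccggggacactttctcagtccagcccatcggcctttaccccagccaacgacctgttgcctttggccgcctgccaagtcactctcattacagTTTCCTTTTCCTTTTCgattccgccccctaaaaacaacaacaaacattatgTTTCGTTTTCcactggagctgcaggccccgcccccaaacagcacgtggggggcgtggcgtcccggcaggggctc
The motif was present in 3.07% of the 27305 promoters, and in 22 of the 34 listed interferon-stimulated genes that matched a RefSeq entry. It was found in 11 of the 19 matched genes that were at least 2-fold higher in WM278 E+BRes and in 11 of the 15 that were not. The sequence of HERC5 shows matches in a gene with a log2 ratio of -0.23, and those of IFI27 and IFIT1 in genes with 3.35 and 1.92.

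**Figure D2:**
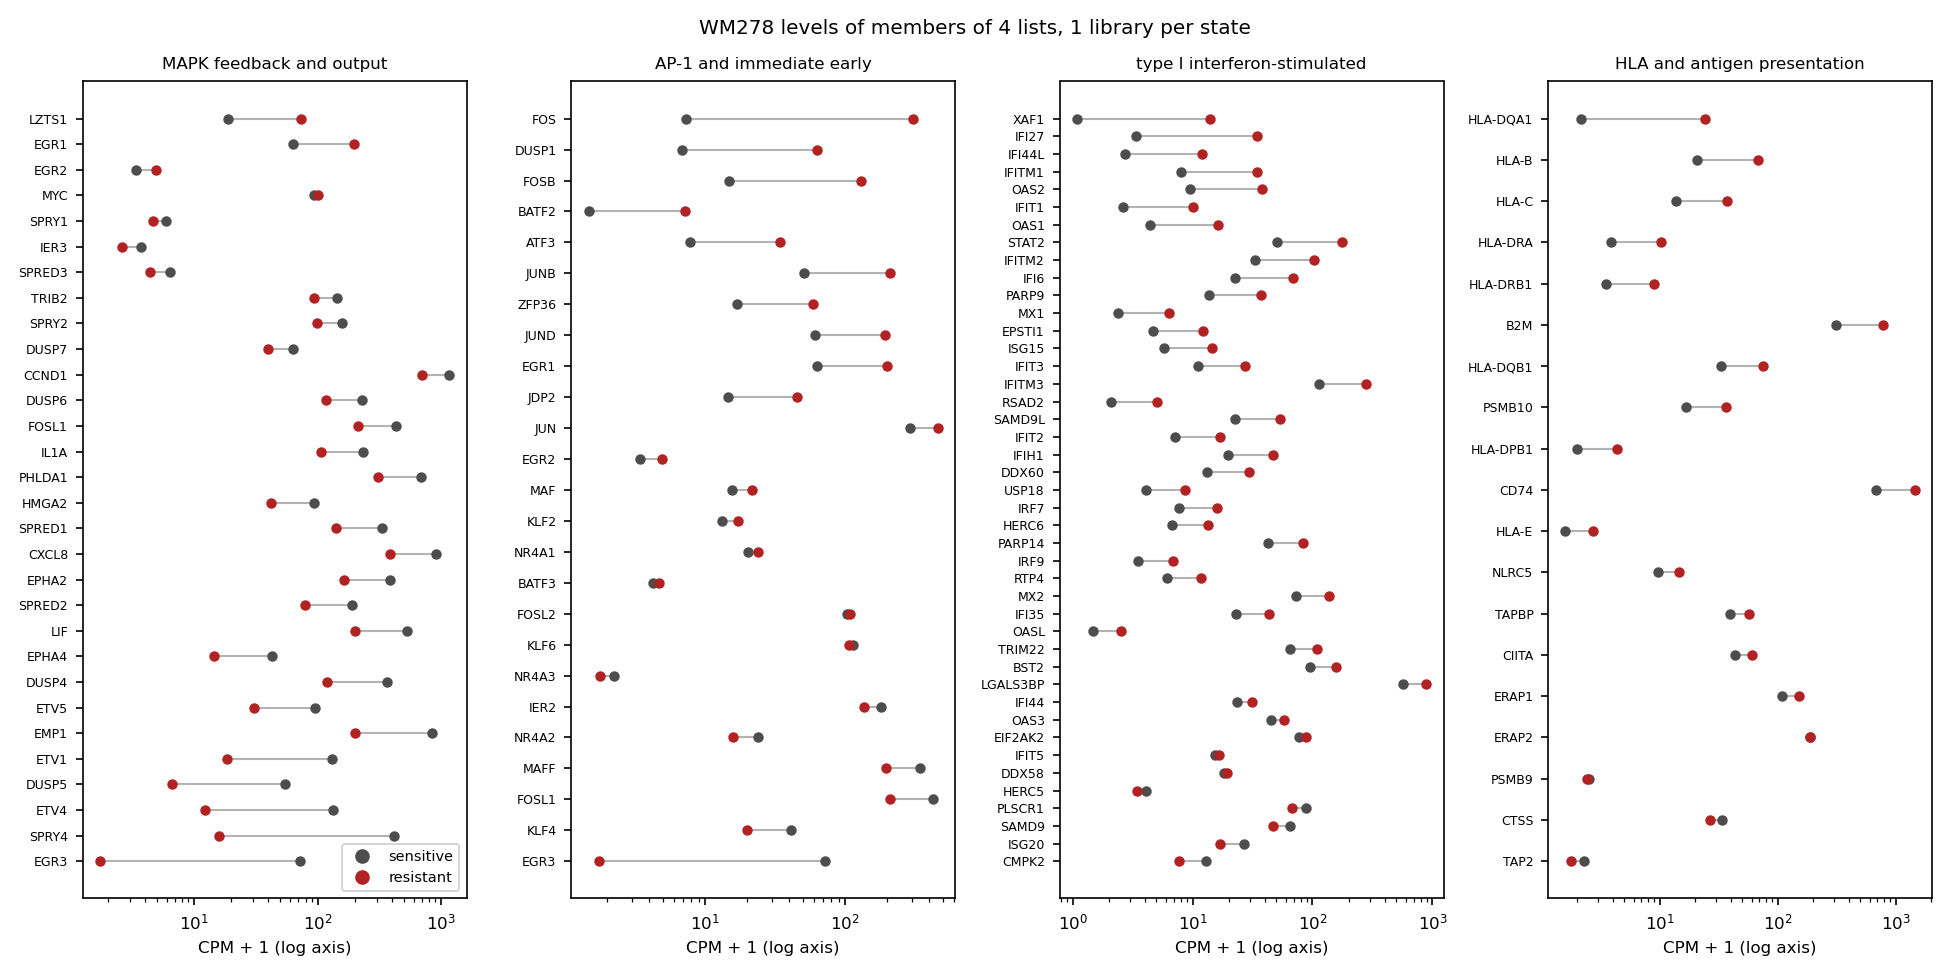
Levels (CPM with 1 added, log axis) of compared members of 4 lists in sensitive (grey) and resistant (red) WM278, each point 1 library, ordered by log2 ratio. MAPK output genes lie mostly lower in the resistant library, with SPRY4 going from 414 to 15.03 CPM; interferon-stimulated and HLA genes lie mostly higher, and the immediate early genes split, FOS and EGR3 at opposite ends.

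Antigen presentation genes had a similar median to the interferon-stimulated genes. Of 20 HLA and antigen presentation genes compared, 11 were at least 2-fold higher and 0 at least 2-fold lower, with a median log2 ratio of 1.10. B2M, the invariant light chain of class I molecules, was at 311 CPM in the sensitive and 781 CPM in the resistant library, a ratio of 2.51 (95% counting interval 2.43 to 2.60). The class I heavy chains HLA-B (19.8 and 67.5 CPM) and HLA-C (12.8 and 36.4 CPM) had log2 ratios of 1.72 and 1.44. Class II genes were included: CD74, the invariant chain, was at 676 and 1442 CPM, HLA-DQB1 at 32.3 and 73.99 CPM, and HLA-DQA1 at 1.16 and 23.4 CPM, while CIITA, the transactivator of class II, was within 2-fold at 42.1 and 59.4 CPM. HLA genes are polymorphic and alike in sequence, so the assignment of their reads is uncertain. Of 22 interferon gamma targets 8 were at least 2-fold higher and 1 at least 2-fold lower. UBD had 0 and 150 reads and IDO1, which depletes tryptophan, 0.0589 and 6.16 CPM. The lower one was CD274, which encodes PD-L1, at 3.13 and 0.764 CPM.

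Cytokines and their receptors differed in both directions, with more of them lower. Of 26 interleukin and IL-1 family genes compared, 11 were at least 2-fold lower and 6 at least 2-fold higher. The IL-1 family and its receptors made up 5 of the 11, IL1RL1 among them: IL1B was at 696 CPM in the sensitive and 119 CPM in the resistant library, IL1A at 231 and 106 CPM, the anti-inflammatory family member IL37 at 29.99 and 0.199 CPM, and IL18R1, a receptor chain, at 33.8 and 8.29 CPM. IL1R1, the signalling receptor of IL-1, was higher at 22.7 and 57.3 CPM. IL13RA2, a decoy receptor, was at 139 and 8.36 CPM and LIF at 528 and 200.2 CPM. The higher group held IL32 (0.177 and 46.2 CPM), IL6 (2.74 and 55.03 CPM), IL24 (9.84 and 59.8 CPM), and both ligands of the macrophage receptor CSF1R, IL34 (0.0589 and 28.6 CPM) and CSF1 (48.1 and 239 CPM).

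Chemokines and NF-kB targets also differed in both directions, with more of them higher. Of 14 chemokine genes and receptors compared, 8 were at least 2-fold higher and 3 at least 2-fold lower. CCL2, which recruits monocytes, was at 102 and 928 CPM, a ratio of 9.13 (95% counting interval 8.69 to 9.61), whereas the neutrophil chemokine CXCL8 was at 912 and 384 CPM and CCL20 at 27.8 and 2.28 CPM. Of 22 NF-kB genes compared, 8 were at least 2-fold higher and 2 at least 2-fold lower. SOD2, the mitochondrial superoxide dismutase, was at 121 and 1481 CPM, the adhesion molecule VCAM1 had 3 and 169 reads, and the feedback inhibitor NFKBIA was at 42.7 and 108 CPM. The subunits NFKB1 (143 and 147 CPM) and RELA (101 and 94.6 CPM) were within 2-fold.

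Matrix genes differed in both directions. Of 25 collagens compared, 10 were at least 2-fold higher and 4 at least 2-fold lower. COL11A1, a fibrillar collagen of cartilage, was at 170.5 CPM in the sensitive and 884 CPM in the resistant library, COL16A1 at 24.2 and 204 CPM, and COL1A1 at 4.93 and 75.95 CPM. COL1A2, the partner chain of COL1A1 in type I collagen, was at 0.177 and 0.572 CPM. The basement membrane chains COL4A1 (701 and 500.2 CPM) and COL4A2 (1731 and 1227 CPM) were within 2-fold. Of 10 fibroblast markers 6 had 20 reads in either library, 4 of them at least 2-fold higher (COL1A1, FAP, PDGFRB and LUM) and 1 at least 2-fold lower (PDGFRA), and the summed level of the list was 25.01 CPM in the sensitive and 173 CPM in the resistant library. DCN, a defining fibroblast transcript, was at 0.177 and 1.08 CPM, and the part of other cells in these ratios was not tested. In bulk RNA a change in the share of cells and a change in RNA per cell cannot be told apart.

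Several integrins were lower. Of 36 matrix glycoproteins, laminins and integrins, 9 were at least 2-fold lower and 7 at least 2-fold higher. ITGB3, the beta-3 chain of the vitronectin receptor and a marker of invasive melanoma growth, was at 325 and 26.5 CPM, 12.2-fold lower (95% counting interval 11.1 to 13.6). ITGA2, ITGA3 and ITGA6, chains of collagen and laminin receptors, had log2 ratios of -2.13, -1.73 and -2.02, while ITGA4 was higher at 118 and 395 CPM. The matricellular gene THBS2 (1479 and 157 CPM) was lower, and FBLN1 (0.825 and 32.4 CPM) and LAMA5 (5.92 and 52.3 CPM) were higher. FN1, fibronectin, was among the most abundant transcripts in both states at 3607 and 6371 CPM and lay within 2-fold. Of 29 matrix proteases and inhibitors, 9 were at least 2-fold lower and 7 at least 2-fold higher. The collagenase gene MMP1 had 221 reads and 1 read, PLAUR, the urokinase receptor, was at 160.3 and 14.1 CPM, and MMP14 at 490.4 and 201 CPM, while MMP2 was at 54.1 and 170.3 CPM and MMP15 at 31.4 and 144 CPM.

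Within the lineage, genes of neural crest and Schwann cells differed in both directions, and more genes of the undifferentiated melanoma state were lower than higher. Of 20 neural crest genes compared, 9 were at least 2-fold higher and 5 at least 2-fold lower, or 9 and 6 with TMM scaling. More higher than lower genes was also the pattern over all compared genes, 1732 against 900. S100B was at 87.2 CPM in the sensitive and 624 CPM in the resistant library, a ratio of 7.16 (95% counting interval 6.78 to 7.56). TFAP2A was at 93.6 and 226 CPM, FOXD3 at 3.35 and 13.03 CPM, and NGFR, which marks the neural crest stem-like state, at 1.14 and 8.11 CPM. These named members are all higher ones. Log2 ratios in the list ran from -4.92 to 2.83, so its largest difference in size was in a lower gene. Of 24 genes of the undifferentiated state, 10 were at least 2-fold lower and 4 at least 2-fold higher. INHBA, encoding activin A, was at 628 and 119.8 CPM. Of 12 EMT transcription factors and cadherins, 2 were at least 2-fold higher, SNAI2 (28.2 and 100.3 CPM) and ZEB2 (72.5 and 163 CPM), both known from differentiated melanoma. ZEB1 (36.1 and 14.6 CPM), TWIST1 (41.2 and 13.4 CPM) and PRRX1 (19.4 and 0.7002 CPM) were at least 2-fold lower. Of 17 melanocyte and pigment genes compared, 5 were at least 2-fold higher and 4 at least 2-fold lower, with a median log2 ratio of 0.04. GPNMB, a melanosomal glycoprotein, was at 95.1 and 754 CPM, and DCT and TYRP1 were low in both states, at 0.884 and 3.49 CPM and 0.236 and 2.38 CPM.

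The higher level of EPAS1 was not matched across the hypoxia target list. Of 29 hypoxia factors and targets compared, 2 were at least 2-fold higher (EPAS1 and EGLN3) and 6 at least 2-fold lower (median log2 ratio of the list -0.22). EGLN3, a prolyl hydroxylase that marks HIF proteins for decay, was at 0.413 and 4.46 CPM. HIF1A was at 240.5 and 256 CPM and VHL, the ubiquitin ligase of HIF proteins, at 61.97 and 61.3 CPM. VEGFA (129.8 and 88.9 CPM) and SLC2A1, the glucose transporter GLUT1 (304 and 174 CPM), had log2 ratios of -0.54 and -0.80. LDHA, lactate dehydrogenase, was at 710.0 and 222 CPM, and STC1, stanniocalcin, at 87.8 and 1.63 CPM, 53.9-fold lower (95% counting interval 36.1 to 81.5).

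Ferritin chains and heme oxygenase were higher, while most other NRF2 targets lay within 2-fold. Of 24 NRF2 targets, 7 were at least 2-fold higher and 0 at least 2-fold lower, with a median log2 ratio of 0.68. HMOX1, heme oxygenase, was at 38.8 and 318 CPM, and the ferritin chains FTL at 1279 and 4588 CPM and FTH1 at 1241 and 2749 CPM, with the reservation that ferritin pseudogenes may share reads. NQO1, a standard NRF2 readout, was within 2-fold at 1442 and 1241 CPM, and SLC7A11, the cystine transporter, at 606 and 565 CPM. Of 19 ABC transporters, 5 were at least 2-fold higher and 1 at least 2-fold lower, ABCC1 being at 30.6 and 119.9 CPM. Of 16 small heat shock proteins and chaperones compared, 2 were at least 2-fold higher (CRYAB and DNAJB4) and 1 lower (BAG3, 256 and 99.3 CPM), HSPB1 was at 464 and 522 CPM, and the median log2 ratio was -0.46.

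Proliferation genes tended lower. Of 38 DNA replication and mitosis genes, 14 were at least 2-fold lower and 0 at least 2-fold higher, with a median log2 ratio of -0.84. MKI67 was at 447 CPM in the sensitive and 180.4 CPM in the resistant library, a ratio of 0.404 (95% counting interval 0.386 to 0.421). RRM2, the regulated subunit of ribonucleotide reductase, was at 329 and 138 CPM, MCM2 of the replicative helicase at 104 and 45.2 CPM, and E2F1 at 156 and 75.04 CPM. Of 16 G1 cyclins and CDK inhibitors, 0 were at least 2-fold higher and 2 lower. The CDK inhibitor gene CDKN1A was within 2-fold at 562 and 331 CPM, and CDKN2B was at 52.4 and 18.7 CPM. Of 14 BCL-2 family genes, 3 were at least 2-fold higher and 2 at least 2-fold lower. BMF, a BH3-only protein that promotes apoptosis, was at 10.3 and 84.3 CPM, BOK at 49.6 and 147 CPM, the anti-apoptotic MCL1 at 419.7 and 199 CPM and BCL2L1 at 139.7 and 96.4 CPM. Of 22 genes of the PI3K and AKT pathway, 1 was at least 2-fold higher and 3 were at least 2-fold lower.

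Neuronal, guidance and receptor genes differed in both directions within families. Of 24 synaptic and neuronal genes compared, 10 were at least 2-fold higher and 5 at least 2-fold lower. The NMDA receptor gene GRIN2A was at 0.354 and 19.7 CPM and the vesicle protein gene SV2B had 1 and 264 reads, while the adhesion molecule gene DSCAM had 220 and 0 reads. Of 17 ion channel genes 3 were at least 2-fold higher and 6 at least 2-fold lower. CACNA1C, the L-type calcium channel, had 0 and 236 reads, and the calcium-activated chloride channel gene ANO1 had 133 reads and 1 read. Of 39 semaphorin, plexin and ephrin genes, 14 were at least 2-fold higher and 11 at least 2-fold lower: SEMA3C was at 142 and 418 CPM, NRP2 at 153 and 362 CPM, NRP1 at 281 and 125 CPM, and EFNB2 at 147 and 16.9 CPM. Of 22 further receptors, 7 were at least 2-fold higher and 5 at least 2-fold lower, among them MRGPRX4 with 336 and 2 reads, the serotonin receptor gene HTR7 at 26.7 and 0.657 CPM, and F2RL1, the protease-activated receptor PAR2, at 45.5 and 1.27 CPM. Of 9 S100 genes, S100B was the only one at least 2-fold higher and 4 were at least 2-fold lower, S100A6 at 1145 and 274 CPM.

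Signalling and housekeeping lists were counted together, beside shares of 10.4% higher and 5.39% lower among all compared genes. At least 2-fold higher and lower were 6 and 3 of 30 TGF-beta and BMP genes, 4 and 5 of 26 WNT genes, 3 and 4 of 22 YAP/TEAD targets, 2 and 2 of 15 NOTCH genes, 1 and 2 of 38 HOX genes, and 1 and 1 of 20 serine synthesis and ATF4 targets. BMP2 was at 141 and 20.9 CPM and its intracellular inhibitor SMAD6 at 8.74 and 59.5 CPM. SFRP1, a secreted WNT antagonist, was at 1271 and 349.6 CPM and JAG1, a NOTCH ligand, at 387 and 94.3 CPM. Of the YAP targets, CTGF was at 496 and 1159 CPM and CYR61 at 316 and 641 CPM, higher, and AMOTL1 at 376 and 104 CPM, lower. Of 32 nuclear genes of the respiratory chain, 31 lay within 2-fold; NDUFB8, a complex I subunit, was the exception at 143 and 42.9 CPM.

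The remaining lists were counted in the same way, beside the same shares of 10.4% and 5.39% among all compared genes. Of 30 IGF binding proteins and growth factors, 5 were at least 2-fold higher and 4 lower, IGFBP7, a secreted inhibitor of melanoma growth, being at 319 and 1370.0 CPM. Of 17 immune checkpoint genes 2 were higher and 4 lower, of 12 APOBEC3 and restriction factor genes 2 were higher and 0 lower, and of 19 SOCS and STAT genes 3 were higher and 0 lower. SAMHD1, a restriction factor that degrades dNTPs, was at 9.22 and 39.2 CPM. Of 18 cancer-testis antigens 2 were higher and 3 lower, of 10 clustered histone genes 3 were higher and 0 lower, and of 10 keratin and epithelial genes 1 was higher and 3 lower, KRT18 being at 273 and 57.9 CPM. Among markers of other cells, 4 of 10 endothelial genes had 20 reads, with 2 at least 2-fold higher and 2 lower, and the list summed to 66.7 CPM in the sensitive and 41.2 CPM in the resistant library, KDR holding most of the former. The macrophage list summed to 7.32 and 5.07 CPM, the T and NK list to 0.118 and 0.456 CPM, and the keratinocyte list, with 2 of 10 genes compared and both within 2-fold, to 54.7 and 73.7 CPM.

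**Figure D3:**
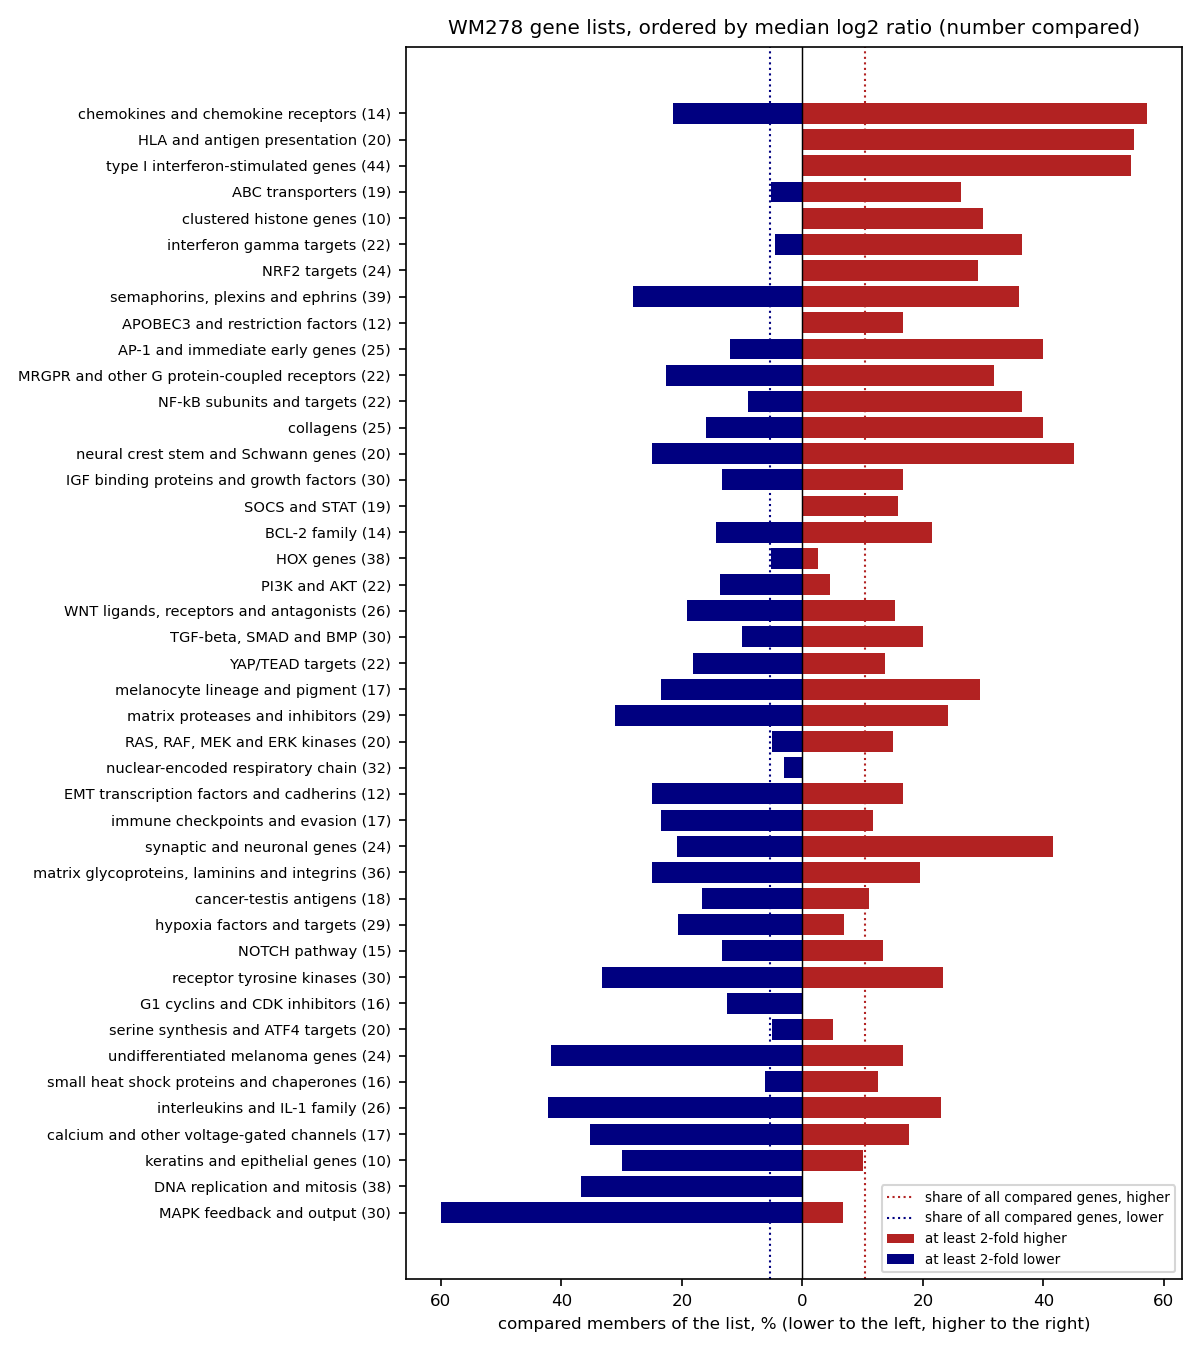
Share of the compared members of each gene list that were at least 2-fold higher (red, right) or lower (blue, left) in resistant WM278, in percent, for lists with at least 10 compared members (number in brackets), ordered by median log2 ratio. Dotted lines mark the shares of all 16700 genes, 10.4% and 5.39%. The MAPK output list extends furthest to the left, with 18 of 30 members lower, and the type I interferon, HLA and chemokine lists furthest to the right.

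The same genes were then set beside their ratios in the other 4 lines, over the 16700 genes compared in WM278 (156 of them had no usable value in sensitive WM983B). At least 2-fold higher were 12.0% of them in WM983A, 13.1% in WM983B, 0.940% in WM1617 and 11.5% in WM902B, and at least 2-fold lower 17.1%, 7.29%, 1.39% and 7.84%. The 1732 genes higher in WM278 were also higher in WM983B for 660 (38.1% of them, and 30.3% of the WM983B genes), in WM902B for 609 (35.2% and 31.6%), in WM983A for 358 (20.7% and 17.8%) and in WM1617 for 36 (2.08% and 22.9%). In WM983A more of them, 472 (27.3%), were at least 2-fold lower. In WM1617 more were lower than higher as well, 57 (3.29% of them, and 24.6% of the lower WM1617 genes). Of the 900 genes lower in WM278, 311 were lower in WM983A (34.6% of them, and 10.9% of the WM983A genes). The counts were 298 in WM902B (33.1% and 22.8%), 238 in WM983B (26.4% and 19.5%) and 26 in WM1617 (2.89% and 11.2%). In WM983A 148 were at least 2-fold higher. Of the higher genes more were thus shared with WM983B and WM902B than with WM983A. The lower genes had their largest overlap with WM983A, but WM983A also had the most lower genes. As a part of the line's own lower genes, the overlap was smallest in WM983A. These shares carry no test.

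Gene lists differed in which lines resembled WM278. At least 2-fold higher among the 44 type I interferon-stimulated genes were 24 in WM278, 33 in WM983B, 34 in WM902B, 3 in WM983A and 0 in WM1617, and 20 were at least 2-fold lower in WM983A. At least 2-fold lower among the 30 MAPK output genes were 18 in WM278, 19 in WM983A, 21 in WM902B, 7 in WM983B and 0 in WM1617. Of the 20 neural crest genes 9 were at least 2-fold higher and 5 at least 2-fold lower in WM278. At least 2-fold higher were 2 in WM983A, 2 in WM983B, 2 in WM1617 and 1 in WM902B, and 14, 13, 0 and 10 were at least 2-fold lower in those lines. SOX10, at a log2 ratio of -0.13 in WM278, had -5.61 in WM983A, -4.44 in WM983B, -0.08 in WM1617 and -7.55 in WM902B. S100B, at 2.83 in WM278, had -7.13, -4.53, 1.26 and -6.63 in the same order.

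Of the 4 genes examined first, EPAS1 and CXCL12 were also higher in resistant WM983B and WM902B, CRYAB differed in direction between lines, and IL1RL1 was found at more than trace level in WM278 only. EPAS1 had log2 ratios of 2.29 in WM983A, 5.47 in WM983B, -0.38 in WM1617 and 4.12 in WM902B, and its level in WM278 E+BRes, 649 CPM, was the highest of the 10 libraries. CXCL12 had 6.58 in WM983B and 8.16 in WM902B, with -0.15 in WM983A and 0.22 in WM1617. CRYAB was lower in resistant WM983A (-3.54) and WM983B (-3.11) and higher in WM902B (1.01), with 0.63 in WM1617. IL1RL1 did not exceed 0.292 CPM in any library of the other lines.

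**Figure D4:**
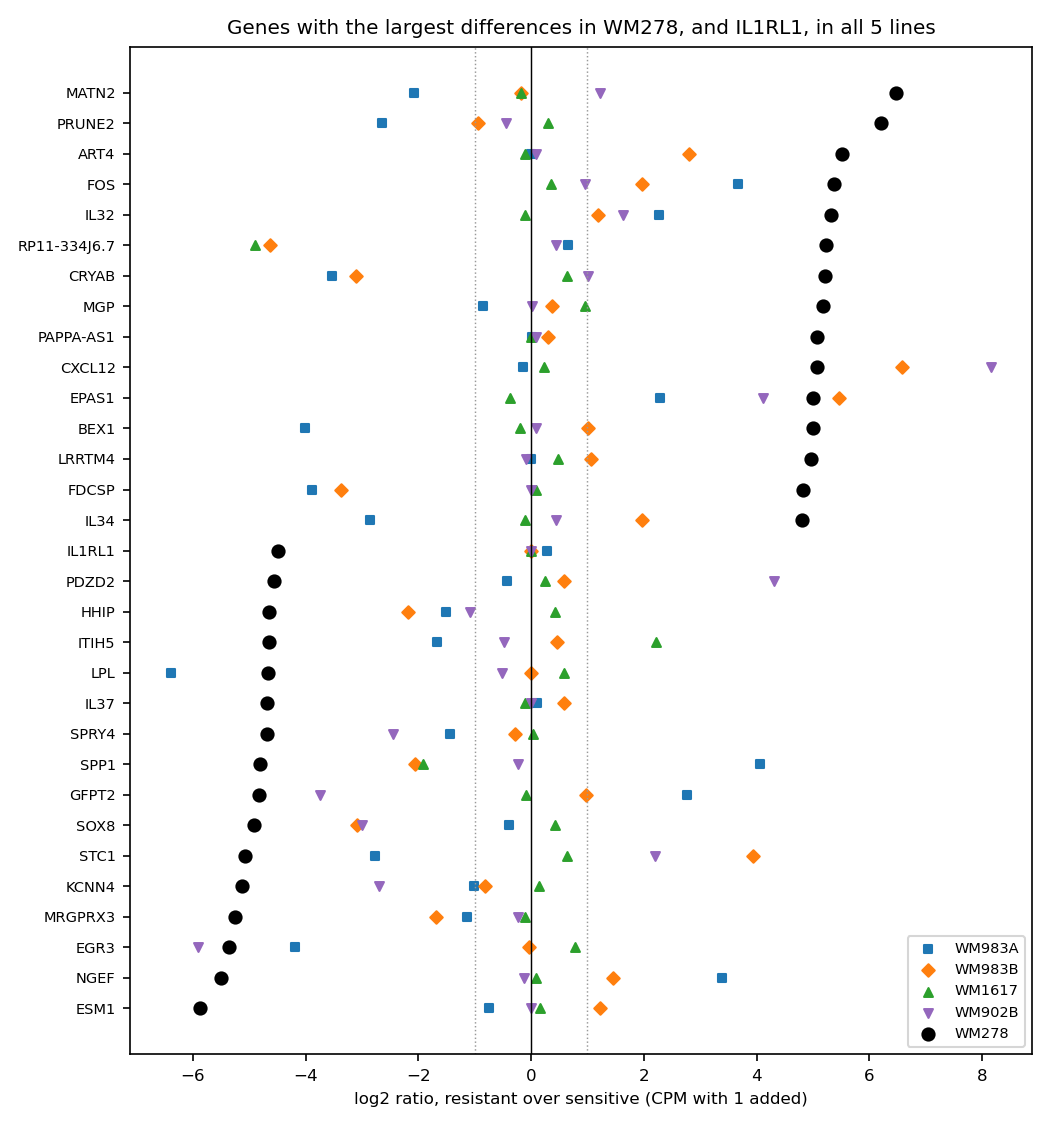
Log2 ratios of resistant to sensitive (CPM with 1 added, x axis) in each of the 5 lines for the 15 genes with the largest and the 15 with the smallest ratios in WM278 and for IL1RL1, each point 1 pair of libraries. The WM278 points (black) are extreme because the genes were chosen on them; FOS lies above 0 in every line, whereas CRYAB and FDCSP lie below -3 in WM983A and WM983B.

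Within 2-fold in all 4 other lines were 8902 of the 16700 compared genes. Of these, 391 were at least 2-fold higher in WM278 (22.6% of its higher genes) and 219 at least 2-fold lower (24.3% of its lower genes). Both percentages are below the part that the 8902 make up of all compared genes. Genes different in WM278 were thus less frequent among the 8902 than among all compared genes. A gene that is hardly detected in the other lines also lies within 2-fold there, since 1 CPM was added. Of the 8902, 7885 had 1 CPM or more in either library of each other line, a limit chosen after seeing the data, and of these 216 were at least 2-fold higher and 114 lower in WM278. The 10 with the largest ratios in size, each below 1 CPM in both libraries of at least 1 other line, were MGP, PAPPA-AS1, NXF3, ABI3BP and CPXM2, which were higher, and IL37, IL1RL1, TRHDE, IRX4 and IL13RA2, which were lower. ABI3BP, a matrix protein gene, was at 9.58 CPM in the sensitive and 184 CPM in the resistant library, NXF3, an X-linked relative of the mRNA export receptor, had 1 and 380 reads, and CPXM2 had 0 and 230. TRHDE, a peptidase gene, was at 28.6 and 0.446 CPM, and IRX4, a homeobox gene, at 19.2 and 0.254 CPM. At the other extreme, 6 genes were at least 2-fold higher in all 5 lines, COL5A1, SYCP2, SYNPO, COL18A1, SOCS3 and SAMD11, and VEPH1 was the 1 gene at least 2-fold lower in all 5. In WM278, COL18A1, the source of endostatin, was at 426 and 1067 CPM, COL5A1 at 57.6 and 203 CPM, SYNPO, an actin-bundling protein gene, at 40.9 and 124 CPM, and SOCS3, a feedback inhibitor of cytokine signalling, at 58.9 and 132 CPM. SAMD11 was low in both states, at 0.33 and 1.76 CPM, and only just past 2-fold with a log2 ratio of 1.05. VEPH1 was at 21.1 and 2.43 CPM. Without WM1617 the counts were 145 higher and 91 lower.

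Ratios were last arranged by chromosome, over 9882 protein-coding genes with at least 200 reads in either WM278 library, a pattern looked for after the values were seen. The median log2 ratio was 0.29 on chromosome 14 (318 genes), 0.33 on chromosome 21 (96 genes) and 0.36 on chromosome 22 (251 genes), against 0.01 over all of these genes, and it lay between -0.15 and 0.08 on every other chromosome. On chromosome 22, 74.9% of the genes were above 0, on chromosome 14 74.8% and on chromosome 21 70.8%, against 51.0% of all. In 20 Mb intervals with at least 20 genes, the lowest median was -0.61 in the first interval of chromosome 5 (33 genes, 78.8% of them below 0), followed by -0.41 in the next (28 genes). IRX4 and PDZD2 lie in these intervals. In the other lines the median of chromosome 21 was 0.45 in WM1617, listed as from the same patient, and -0.91 in WM983A and -0.77 in WM983B. That of chromosome 14 was 0.26 in WM983A and -0.16 in WM1617, and that of chromosome 22 was -0.95 and -0.08 in the same order. In WM1617 the first interval of chromosome 5 had a median of 0.05 and the next 0.06, so of these regions WM1617 resembled WM278 on chromosome 21 only. The same intervals had medians of -0.17 and -0.53 in WM983A, -0.36 and -0.48 in WM983B, and 0.05 and 0.03 in WM902B. Low medians at the start of chromosome 5 were thus not particular to WM278. DNA copy number was not measured in these libraries.

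**Figure D5:**
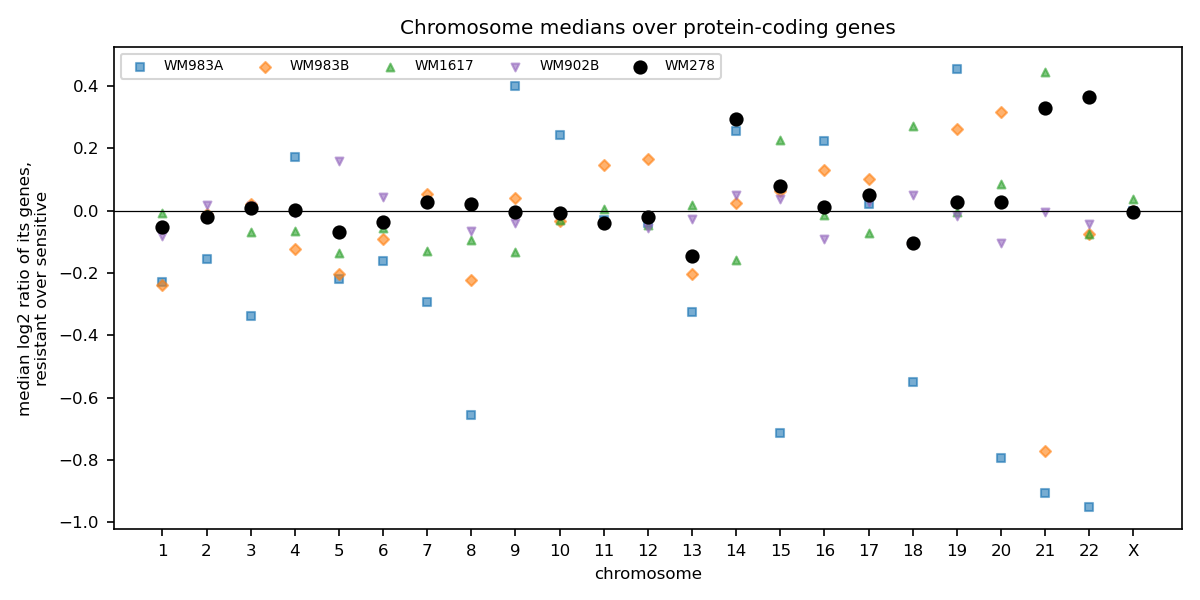
Median log2 ratio of resistant to sensitive (y axis) over the protein-coding genes of each chromosome (x axis), for WM278 (black) and the other 4 lines. In WM278 chromosomes 14, 21 and 22 lie at 0.29, 0.33 and 0.36, above all of its other chromosomes.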

How the data were processed

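Libraries were made from oligo-dT selected RNA, sequenced on a NextSeq 500 in single-end mode with 75 cycles, aligned with HISAT2 to GRCh38 (hg38) and quantified in StrandNGS by the authors. The HISAT2 version, the gene annotation, the strand setting and the treatment of reads matching several genes are not given in the sources used here. The tables deposited by the authors hold expected counts per gene, made from those alignments in StrandNGS and not always whole, and a column of log2 values that the authors normalised as the ratio between the states of a line. The latter are the authors' own comparison and were not used. Of the sensitive WM983B counts, 455 had been turned into dates and were treated as missing.

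Expected counts were divided by the library total to give CPM, and log2 ratios of resistant to sensitive were taken on CPM with 1 added, which understates the change of low genes. Genes with at least 20 counts in either WM278 library were compared. A fold against a library at 0 used a floor of 3 counts per library and is a lower bound; with 1 or more counts the ratio is given with an exact binomial (Clopper-Pearson) 95% interval on rounded counts, which covers counting error only. Each state had 1 library, so no p-value was computed. Calculations used Python 3.11.15 with pandas 2.3.3 and scipy 1.17.1. Alternatives were TMM factors from edgeR 4.0.16 and size factors from DESeq2 1.42.0 on rounded counts, 0.1 or 5 CPM added, and minimum counts of 1 or 100. Code was tested on simulated data. Chromosomes came from GENCODE release 44, which matched 16510 of the 16700 genes by identifier, and promoters from RefSeq on GRCh38.p14.

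The members and gene lists were chosen with earlier results of these data known. Genes named were CRYAB, IL1RL1, CXCL12 and EPAS1, the 15 largest and 15 smallest log2 ratios, members of 49 lists that were at least 2-fold different or at 100 CPM or more, defining members near 0, and, across lines, the 10 largest ratios among genes within 2-fold elsewhere and up to 10 genes at least 2-fold different the same way in all 5 lines. List members within 2-fold and below 100 CPM that are named for their role, and MITF, were chosen after their values were seen. Some members of the lists enter the counts and medians but are not reported here by name or value, in the text or in the plots.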

Additional observations from a re-analysis of the deposited data

Results flagged for a closer look

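In 12 genes of the lists that were at least 2-fold different in WM278, with at least 10 CPM in either of its libraries, the log2 ratio had the opposite sign in all 4 other lines, and this opposition drew attention to them. They were 12 of 313 named genes past those limits (3.83%), against 61 of 1651 (3.69%) among all compared genes, and some of the opposing values lie near 0. The difference between lines was not tested, since each line has 1 library per state. Higher in WM278 E+BRes and lower in the other resistant lines were the neurotrophin receptor gene NTRK2 (3.67), the cytokine gene IL24 (2.49), the collagen gene COL11A1 (2.37), LZTS1 (1.96) and the synaptic adhesion gene NRXN3 (1.24). COL11A1 had -0.42 in WM983A, -0.08 in WM983B, -0.34 in WM1617 and -0.27 in WM902B, and NTRK2 had -0.62, -0.77, -1.25 and -0.28. Lower in WM278 E+BRes and higher in the others were KRT80 (-2.08), the potassium channel gene KCNJ2 (-2.02), the integrin gene ITGA3 (-1.73), the ephrin receptor gene EPHA4 (-1.58), the EMT factor gene ZEB1 (-1.25), the semaphorin co-receptor gene NRP1 (-1.16) and the cytokine gene CLCF1 (-1.12). ITGA3 had 0.07, 2.27, 0.70 and 0.54 in the same order of lines, and ZEB1 4.88, 0.78, 0.15 and 3.10.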

How the results depend on the processing

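No paired analysis was possible because each state has 1 library. With TMM or DESeq2 size factors the median log2 ratio of all genes moved from 0.08 to -0.03, and higher genes made up 58.0% of those at least 2-fold different in place of 65.8%. The amount added to CPM mattered most. With 0.1 CPM added, 289 genes were at least 8-fold higher and 145 lower, and the log2 ratios of IL1RL1, CXCL12 and CRYAB became -7.75, 8.35 and 7.93. With 5 CPM added, 826 genes were at least 2-fold higher and 518 lower, 31 at least 8-fold higher and 25 lower, and the ratios of IL1RL1, CXCL12, CRYAB and EPAS1 were -2.40, 2.91, 3.11 and 4.76. TMM scaling gave 22 in place of 24 type I interferon-stimulated and 10 in place of 11 HLA genes at least 2-fold higher, and 18 in place of 14 replication and mitosis genes at least 2-fold lower. No log2 ratio of the 4 genes changed sign under the alternatives run. Chosen after seeing the data, a minimum of 50 reads gave chromosome medians of 0.33, 0.35 and 0.40 on 14, 21 and 22, and TMM scaling 0.18, 0.21 and 0.24. TMM scaling applies 1 factor to a whole library, so these medians moved down together with that of all genes. The median of the first 40 Mb of chromosome 5 likewise went from -0.51 to -0.63. Low genes are limited by depth: 26 of the 101 genes at least 8-fold higher had 3 reads or fewer in the sensitive library.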
